A study of Mus musculus with 8 samples.

Results

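The translation initiation factors described here are 52 of the 55304 genes in the deposited count table. They are the genes whose symbol is Eif followed by a digit from 1 to 6 and then only lower-case letters or digits, with at least 10 counts in at least 2 libraries, leaving out pseudogenes and the sex-linked pair Eif2s3x and Eif2s3y. The pattern matched 54 symbols, and 2 of them, Eif2c5 and Eif4e1b, held no counts in any library. The rule did not use any difference between groups.

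RNA was measured in mouse kidney cells positive for the lectin DBA (Dolichos biflorus agglutinin), which marks the collecting duct and cysts that arise from it. The mice were wild type (WT) or had polycystic kidney disease of the autosomal dominant kind, labelled ADPKD without the name of the altered gene. Both genotypes were given vehicle (DMSO) or 666-15, a compound that inhibits CREB, dosed at 5 mg/kg daily on 5 consecutive days with 2 days off, starting on postnatal day 11 and lasting 3 weeks. Each of the 4 groups (WT vehicle, WT 666-15, ADPKD vehicle, ADPKD 666-15) had 2 libraries, with 15108793 to 19702638 counts each. The labels name no separate animals behind the 2 libraries within a group, so p-values measure the spread between these libraries, which may be technical, except that the WT 666-15 libraries differ in sex and so in animal.

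Initiation factors bring the small ribosomal subunit and the initiator tRNA to the start codon of an mRNA. The eIF4 proteins bind the cap and unwind the leader, eIF2 carries the initiator tRNA in a complex with GTP, eIF3 is a large scaffold on the small subunit, and eIF1, eIF1A, eIF5 and eIF5B govern start codon choice and the joining of the large subunit. Cells slow initiation through kinases that phosphorylate eIF2 alpha and through eIF4E-binding proteins, which mTORC1 controls by phosphorylation and which sequester the cap-binding protein. mTOR signalling is known to be raised in cystic kidney epithelium. Control of these proteins is largely by phosphorylation, which RNA levels do not show.

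The second 666-15 library of WT cells stood apart from the other 7 by sex: it held 17688 counts of Xist and 0 of Ddx3y, against at most 8 counts of Xist and at least 1776 of Ddx3y elsewhere. Without it the calls were 37, 28, 14, 29 and 20 of the 52 genes in the 5 comparisons below, taken in the order genotypes with vehicle, 666-15 in ADPKD cells, 666-15 in WT cells, genotypes with 666-15 and interaction, against 34, 24, 11, 28 and 15 with it. The groups also differed in markers of other nephron segments. The 10 proximal tubule markers summed to 1.32% to 1.37% of counts in WT vehicle libraries, 0.468% to 0.558% in WT 666-15, 0.00728% to 0.0107% in ADPKD vehicle and 0.0285% to 0.0297% in ADPKD 666-15. The 9 markers of principal cells, 1 cell type of the collecting duct, summed to 0.109% to 0.147%, 0.600% to 0.606%, 0.152% to 0.186% and 0.191% to 0.225% in the same order. At most 1 marker of either list was at 0 in any library, and Aqp2, the water channel of principal cells, had group means of 344, 1811, 551 and 468.5 CPM (scaled counts, defined below). With 666-15 in ADPKD cells, 4 of the 8 principal cell markers tested were higher and 1 lower, against 22.3% and 19.1% of all genes. In WT cells all 8 were higher with 666-15, against 13.9% of all genes. The 8 markers of intercalated cells, also of the collecting duct, summed to 0.0942% to 0.0982%, 0.166% to 0.226%, 0.0217% to 0.0245% and 0.0597% to 0.0715%, again in that order of groups. Fibroblast and pericyte markers reached 0.0577% of counts at most, and macrophage and leukocyte markers 0.0290%, both in ADPKD vehicle libraries, and endothelial markers were 0.103% to 0.127% there and 0.0280% to 0.0361% in ADPKD 666-15. With 666-15 in ADPKD cells, 8 of 10 proximal tubule and 7 of 8 intercalated cell markers were called higher and none lower. All 8 endothelial markers were called lower there. The part of these markers in the results below was not tested, and in these bulk samples fewer cells of a type and less RNA per cell cannot be told apart.

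All 52 genes passed the low-count filter and were tested among 17440 genes. They made up 0.925% to 0.945% of all counts in the WT libraries and 1.07% to 1.12% in the ADPKD libraries, so the 2 genotypes did not overlap in this share under either treatment. Levels are given in CPM, which are counts divided by the scaled library size, in the order of the replicate number. Per kilobase of the longest transcript, the most abundant of these RNAs in WT vehicle cells was Eif1 at 408 CPM per kilobase, followed by Eif5a at 274, Eif5 at 178, Eif4a2 at 160.5, Eif4a1 at 159 and Eif6 at 154. The least abundant were Eif4ebp3 at 0.847, Eif5a2 at 1.29 and Eif3j2 at 1.48 CPM per kilobase. Several members share sequence with other genes, so that their counts could be split or merged: 91.9% of the 50-base words of Eif3j2 and 54.8% of those of Eif3j1 occur in another gene, with each the other's leading match, as do 65.5% of those of Eif4ebp3, 42.1% of Eif3d, 33.3% of Eif4a1, 31.6% of Eif1, 26.2% of Eif3h and 24.4% of Eif4a3.

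Between genotypes with vehicle, initiation factor RNAs were mostly higher in ADPKD cells. With edgeR's quasi-likelihood test at an adjusted p below 0.05, 28 of the 52 genes were higher and 6 were lower, with 18 not called. Over all genes tested, 56.4% were called in this comparison, 28.8% as higher and 27.6% as lower. The median log2 fold change was 0.41 over the initiation factors and 0.05 over all genes. Libraries of the 2 groups did not overlap for 45 of the 52 genes, and for 13946 of all 17440 genes tested. The rise was widest among the eIF3 subunits, of which 13 of 14 were higher and none lower, with a median of 0.67. Leaving out any 1 library gave 25 to 37 calls among the 52 genes.

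**Figure D1:**
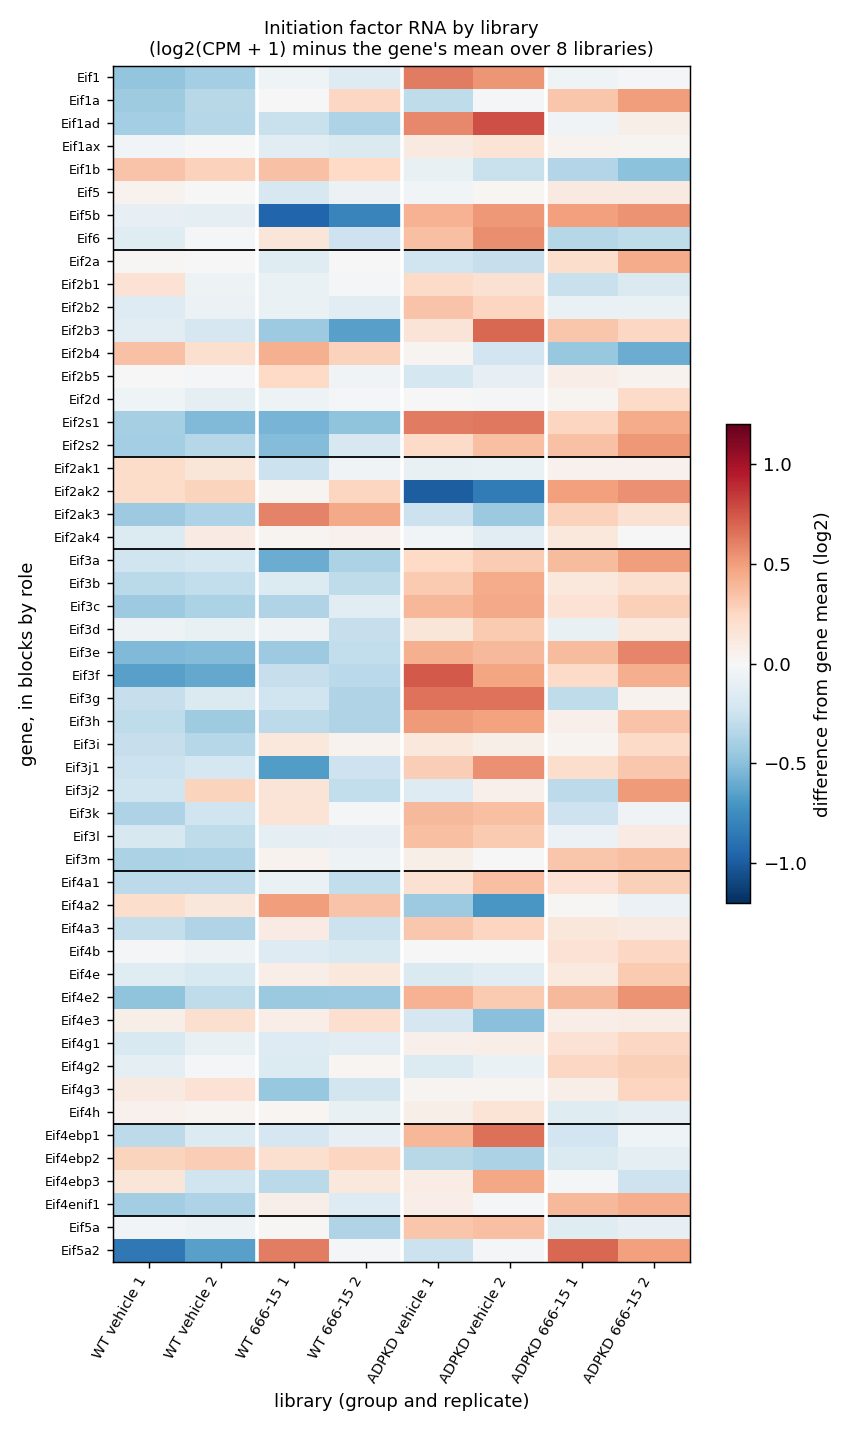
Each row is 1 of the 52 initiation factor genes, in blocks by role, and each column is 1 library; colour is log2(CPM + 1) minus the gene's mean over the 8 libraries. Most eIF3 rows are red in the ADPKD vehicle columns and blue in the WT vehicle columns, while Eif2ak2, Eif4a2 and Eif4ebp2 show the opposite.

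The group named for start codon selection and subunit joining holds 8 of the genes, of which 4 were higher in ADPKD vehicle cells and 1 lower. A role of Eif1ad, which is in this group, in these steps was not tested. Eif1 encodes the factor that keeps the scanning ribosome open until a start codon is reached (chromosome 11, 100319885 to 100322096, plus strand, GRCm38). Its level was 527 and 552 CPM in WT vehicle and 1129 and 1058 CPM in ADPKD vehicle libraries. The groups did not overlap, and the log2 fold change was 1.02 ± 0.09 (SE of the fit, n = 2 per group, edgeR adjusted p = 7.35e-07). Eif1ad, a gene with an eIF1A-like domain (chromosome 19, 5366741 to 5371526), stood at 32.6 and 34.1 CPM in WT vehicle and 65.3 and 75.0 CPM in ADPKD vehicle libraries, a log2 fold change of 1.07 ± 0.12 (adjusted p = 6.94e-06). Eif5b, the GTPase that joins the subunits, and Eif6, which keeps the large subunit from joining early, had log2 fold changes of 0.58 and 0.55. The Eif1 paralogue Eif1b went the other way, from 28.9 and 27.5 CPM to 21.2 and 18.6 CPM, with a log2 fold change of -0.50 and an adjusted p of 0.00922. Its call ended without the first WT vehicle library (-0.48, adjusted p = 0.0624) or the second ADPKD vehicle library (-0.43, adjusted p = 0.0553). Eif1b therefore made up 5.98% to 6.54% of the pair's RNA per length in WT vehicle and 2.19% to 2.35% in ADPKD vehicle libraries.

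Because 666-15 acts on CREB, the promoters were searched for the cAMP response element on both strands. The full element TGACGTCA was in none of the 41 members with a RefSeq promoter window (250 bases before to 50 bases after the annotated start, GRCm38.p6), against 3.3% of the 12056 tested genes with a window. The TGACG half-site, which the full element contains, was in 21 of the 41 (51.2%), against 33% of tested genes. A match is a description of the letters and not evidence of binding. Among the 21 with the half-site, Eif2a, Eif2ak4, Eif2b1, Eif2d and Eif4e were not called between genotypes with vehicle. Eif2b4, Eif4a2 and Eif4ebp2 were lower. The rest of the 21 were higher, as were 28 of all 52 members. With 666-15, Eif6 changed most of the start codon and subunit joining group in ADPKD cells (-0.78) and has no window. Eif5b changed most of it in WT cells (-0.77) and has no half-site. Eif1 and Eif1ad, which changed most of this group between genotypes with vehicle, both carry the half-site. It is in capitals in the stretches below (RefSeq, 5′ to 3′ on the gene's strand). Eif1 has 2, of which the one nearer to the start is shown. This site lies before the RefSeq start but inside the gene as positioned above, which begins at 100319885.
Eif1, chr11:100319869-100319948, plus strand: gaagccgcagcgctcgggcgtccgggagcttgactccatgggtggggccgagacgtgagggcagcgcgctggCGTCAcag
Eif1ad, chr19:5366688-5366767, plus strand: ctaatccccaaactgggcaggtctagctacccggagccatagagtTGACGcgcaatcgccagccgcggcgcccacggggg
In Eif1 the half-site reads CGTCA because it lies on the other strand.

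Of the 9 genes for eIF2, its exchange factor eIF2B and the alternative tRNA carriers, 4 were higher and 1 lower in ADPKD vehicle cells. Eif2s1 encodes eIF2 alpha, the subunit whose phosphorylation slows initiation (chromosome 12, 78861819 to 78887010). It was at 70.2 and 64.2 CPM in WT vehicle libraries and at 144 and 145 CPM in ADPKD vehicle libraries, which did not overlap. The log2 fold change was 1.11 ± 0.10 (adjusted p = 1.30e-06). Eif2s2, the beta subunit, rose from 175 and 183 CPM to 272 and 299 CPM (log2 fold change 0.68 ± 0.12, adjusted p = 2.80e-04). Among the 5 eIF2B subunits, which recharge eIF2 with GTP, the direction was mixed: Eif2b2 (0.42) and Eif2b3 (0.66) passed as higher, Eif2b4 (-0.38) passed as lower, and Eif2b1 and Eif2b5 did not pass. The Eif2b3 call rested on the second ADPKD vehicle library, at 22.6 CPM against 15.3 in the first, and its log2 fold change was 0.33 (adjusted p = 0.210) without it. The Eif2b4 call also ended without that library (-0.27, adjusted p = 0.208), and both ended without either WT vehicle library (adjusted p of 0.0543 to 0.220). The Eif2b2 call ended without the first WT vehicle library (0.36, adjusted p = 0.0951) or the first ADPKD vehicle library (0.37, adjusted p = 0.0529).

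Of the 4 kinases that phosphorylate eIF2 alpha, 1 was lower and none higher in ADPKD vehicle cells. Eif2ak2 encodes PKR, which senses double-stranded RNA and is induced by interferon (chromosome 17, 78852564 to 78882573, minus strand). It was at 33.9 and 34.9 CPM in WT vehicle and at 14.1 and 15.7 CPM in ADPKD vehicle libraries. This was the largest fall of the 52 genes in the comparison, with a log2 fold change of -1.21 ± 0.14 (adjusted p = 7.71e-06). Eif2ak3, which encodes PERK, the kinase of the endoplasmic reticulum stress response, was at 159 and 167 CPM against 181 and 158 CPM (0.06 ± 0.10, adjusted p = 0.650). Eif2ak1 (HRI, the haem-regulated kinase) and Eif2ak4 (GCN2, the amino acid sensor) did not pass, although Eif2ak1 was near the threshold (-0.28, adjusted p = 0.0590) and passed under 6 of the 17 other settings. The Eif2ak2 window, with those of Eif2s1 and Eif3a, was 1 of 3 among the 41 (7.32%) to hold the core letters of an interferon-stimulated response element (GAAA, any 2 bases, then GAAA, on either strand), against 3.72% of tested genes. It is shown because Eif2ak2 fell most of the 52 genes by genotype and rose most with 666-15 in ADPKD cells. These letters are in capitals and lie after the annotated start. Eif2s1 and Eif3a, which also hold them, were higher between genotypes with vehicle (1.11 and 0.50). A part of these letters in the changes was not tested.
Eif2ak2, chr17:78882536-78882565, minus strand: gagtccgccggGAAAACGAAAcagaagaga

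**Figure D2:**
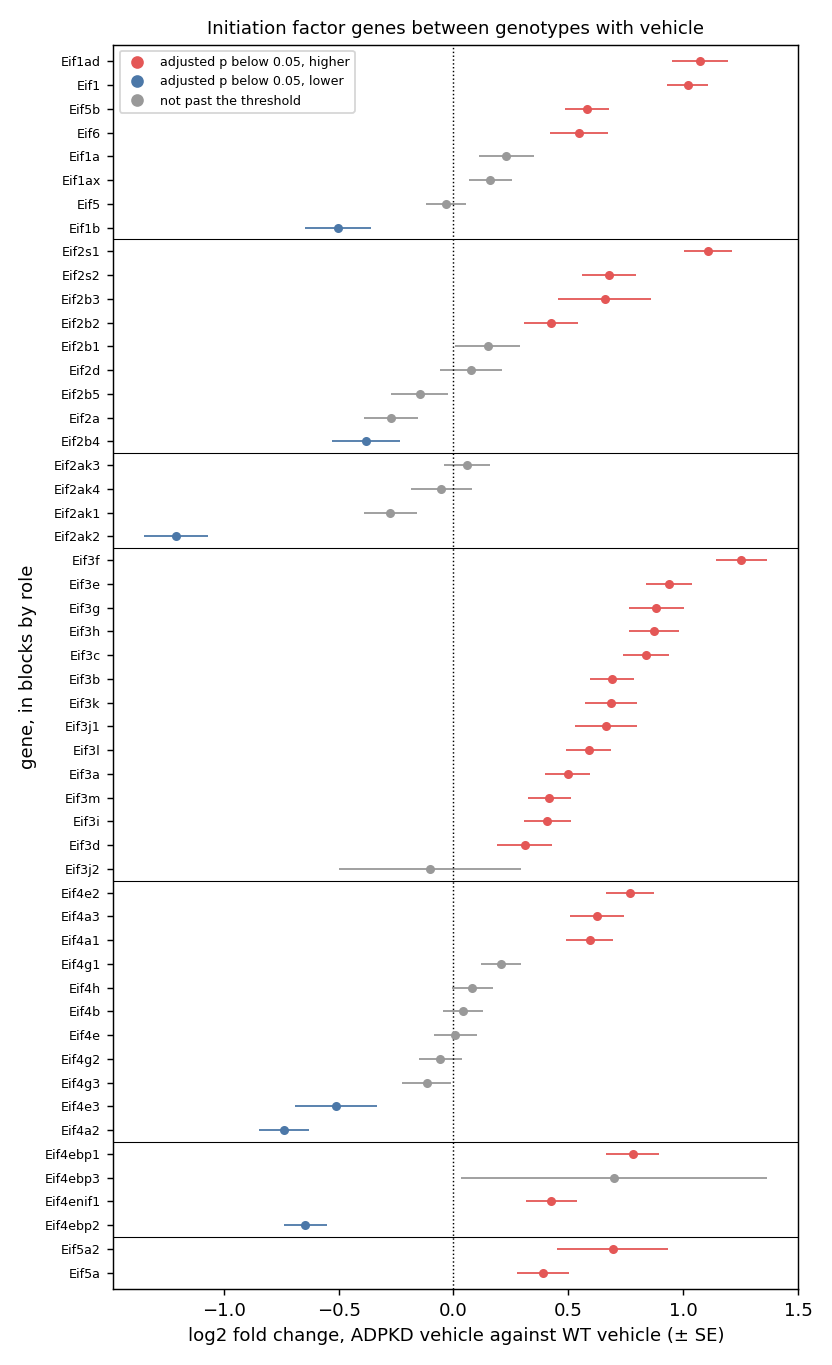
Points are log2 fold changes of ADPKD vehicle against WT vehicle for the 52 genes, with bars of ± 1 SE, in blocks by role and ordered within a block. The eIF3 block lies to the right of 0 except Eif3j2, and Eif2ak2 lies farthest to the left at -1.21.

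The eIF3 complex is the scaffold that links the small subunit to the cap-binding complex, and 13 of its 14 genes were called in the same direction. Their summed level was 1822 and 1842 CPM in WT vehicle, 1872 and 1950 CPM in WT 666-15, 2969 and 3006 CPM in ADPKD vehicle and 2611 and 2902 CPM in ADPKD 666-15 libraries. Both genotypes were thus apart under each treatment. With vehicle, Eif3f (chromosome 7, 108934417 to 108942951) changed most, from 102 and 106 CPM in WT to 269.9 and 225 CPM in ADPKD libraries. Its log2 fold change was 1.25 ± 0.11 (adjusted p = 7.57e-07), the largest rise of the 52 genes. Eif3e followed at 99.2 and 99.4 CPM against 192 and 188 CPM (0.94 ± 0.10, adjusted p = 4.54e-06). Eif3g, an RNA-binding subunit, was at 67.1 and 72.1 CPM against 128 and 128 CPM (0.88 ± 0.12, adjusted p = 3.86e-05). Eif3h was at 129 and 118 CPM against 228 and 224 CPM (0.87 ± 0.11, adjusted p = 1.53e-05). The core subunits Eif3a, Eif3b and Eif3c had log2 fold changes of 0.50, 0.69 and 0.84, and the smallest of the called changes was that of Eif3d at 0.31 (adjusted p = 0.0406). Eif3d overlaps an antisense gene and its call was lost under 9 of 17 other settings, among them the removal of the second ADPKD vehicle library (0.20, adjusted p = 0.271). Leaving out any 1 library left 11 to 13 of the 14 called as higher and none as lower, and the call of Eif3i was among those lost (0.35, adjusted p = 0.0603, without the second WT vehicle library). The exception throughout was Eif3j2, at 2.54 to 5.29 CPM over all libraries, whose reads can hardly be told from those of Eif3j1.

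Eif3f was 1 of 10 among the 41 members whose window held a CACGTG E-box, the letters bound by Myc and related factors (24.4%, against 11.1% of tested genes). Of the others with an E-box, Eif3a, Eif3k, Eif4a1, Eif5a and Eif5a2 were also higher in ADPKD vehicle cells, where 28 of all 52 members were. Eif1b was lower, and Eif4e, Eif4g1 and Eif4h were not called. A part of the E-box in these changes was not tested. Eif3f was also the only 1 of the 41 whose annotated start was C followed by 4 pyrimidines, the form of the terminal oligopyrimidine tract that mTORC1 acts through, against 3.04% of tested genes. Among eIF3 genes, Eif3e, Eif3h, Eif3i and Eif3j2 had no window to search. The E-box of Eif3f is in capitals.
Eif3f, chr7:108934303-108934382, plus strand: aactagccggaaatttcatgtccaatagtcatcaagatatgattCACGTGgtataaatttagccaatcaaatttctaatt

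Among the 11 genes of cap-binding, helicase and scaffold proteins, 3 were higher and 2 lower in ADPKD vehicle cells, with a median log2 fold change of 0.04. Those for the cap-binding complex itself showed little difference: Eif4e, the cap-binding protein, was at 234 and 228 CPM in WT and 228 and 236 CPM in ADPKD vehicle libraries (0.01 ± 0.09, adjusted p = 0.947). Eif4g1, its scaffold, had a log2 fold change of 0.21 (adjusted p = 0.0589). The helicase paralogues moved apart. Eif4a1 was at 503 and 503 CPM in WT vehicle and 713 and 804 CPM in ADPKD vehicle libraries (0.59 ± 0.10, adjusted p = 2.86e-04). Eif4a2 was at 447 and 422 CPM against 284 and 237 CPM (-0.74 ± 0.11, adjusted p = 6.57e-05). Per length, Eif4a2 made up 51.0% and 49.5% of the pair in WT vehicle libraries and 31.8% and 25.7% in ADPKD vehicle libraries, and the groups did not overlap. The processed pseudogene Eif4a-ps4 held 17.7 to 22.0 counts per 100 counts of Eif4a1 in the 8 libraries, close to a fixed share, so reads of Eif4a1 may be divided between them. Eif4a3, a helicase of the exon junction complex, rose as well (0.62). Eif4e2, a cap-binding paralogue associated with translational repression, was at 63.6 and 71.8 CPM against 119.6 and 111 CPM (0.77 ± 0.11, adjusted p = 3.90e-05), while Eif4e3 was lower (-0.51), a call that ended without the second ADPKD vehicle library (-0.38, adjusted p = 0.139) and without either WT vehicle library (adjusted p of 0.0593 and 0.131).

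Both helicase paralogues, which moved in opposite directions, have the TGACG half-site in their promoter windows, in capitals below (CGTCA where it lies on the other strand).
Eif4a1, chr11:69672424-69672503, minus strand: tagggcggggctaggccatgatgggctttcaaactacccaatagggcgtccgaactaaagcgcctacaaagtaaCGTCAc
Eif4a2, chr16:23107299-23107378, plus strand: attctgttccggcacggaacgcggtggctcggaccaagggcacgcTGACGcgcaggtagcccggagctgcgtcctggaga

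The eIF4E-binding proteins, which block assembly of the cap complex when unphosphorylated, also diverged. Eif4ebp1 (chromosome 8, 27260329 to 27276674) was at 80.9 and 89.6 CPM in WT vehicle and 133 and 159.5 CPM in ADPKD vehicle libraries (0.78 ± 0.12, adjusted p = 8.03e-05). Eif4ebp2 was at 118 and 119.8 CPM against 77.3 and 74.8 CPM (-0.64 ± 0.09, adjusted p = 6.64e-05). Eif4ebp1 thus made up 66.5% and 68.4% of the pair per length in WT vehicle libraries and 83.3% and 86.1% in ADPKD vehicle libraries. Eif4enif1, the shuttling protein that carries eIF4E into the nucleus, was higher by 0.43 on the log2 scale, a call that ended without the first WT vehicle library (0.38, adjusted p = 0.0611). Eif4ebp3, at 0.331 to 1.30 CPM, was too low to compare. Both genes of eIF5A, which helps ribosomes past difficult stretches and is the known carrier of hypusine, passed as higher, Eif5a by 0.39 and Eif5a2 by 0.69. Both calls were lost without either WT vehicle library or without the second ADPKD vehicle library (adjusted p of 0.0551 to 0.168).

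**Figure D3:**
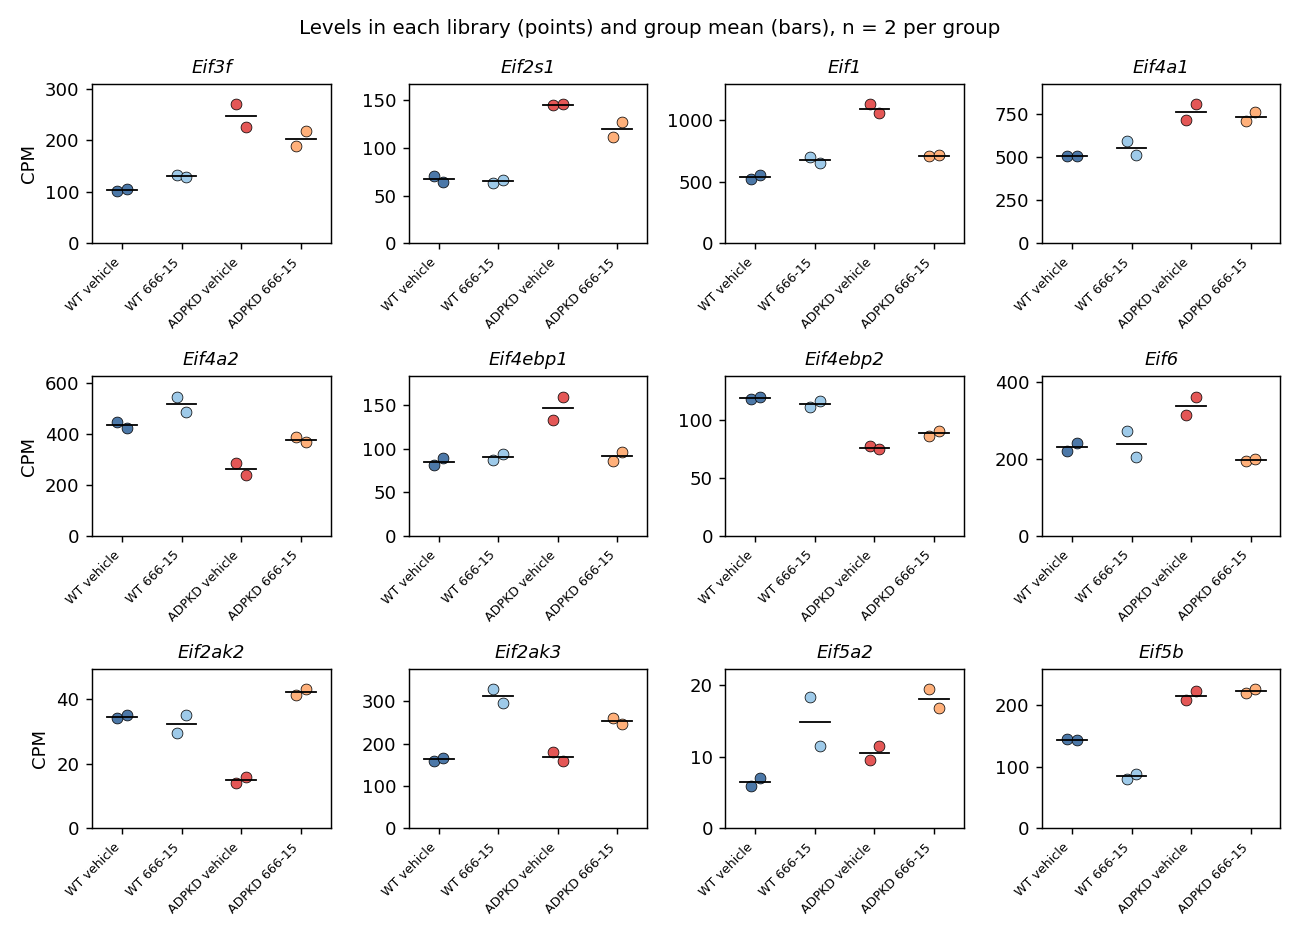
Levels in CPM (y axes, each from 0) of 12 initiation factor genes in each library (points) and the group mean (bar), by group. Eif3f, Eif2s1 and Eif1 are highest in ADPKD vehicle cells; Eif2ak2 is lowest there at 14.1 and 15.7 CPM, and Eif5b is lowest in WT 666-15 cells at 79.9 and 88.9 CPM.

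In ADPKD cells, initiation factors were called in both directions with 666-15, as were genes in general. Relative to vehicle, 10 of the 52 genes were higher, 14 were lower and 28 were not called, where 41.4% of all genes were called, 22.3% as higher and 19.1% as lower. The median log2 fold change was 0.04, and 0.02 over all genes. Without the first ADPKD 666-15 library the calls fell to 13, of which 8 were higher and 5 lower. The calls kept under each of the 17 other settings at the same threshold were 7 of the 24: Eif2ak2 and Eif2ak3 as higher and Eif1, Eif1ad, Eif3g, Eif4ebp1 and Eif6 as lower. This comparison and the one between genotypes share the ADPKD vehicle libraries, so opposite directions in them are not independent.

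Eif2ak2 rose most with 666-15, to 41.1 and 42.8 CPM from the 14.1 and 15.7 CPM of the vehicle libraries. The log2 fold change was 1.49 ± 0.14 (adjusted p = 7.28e-06), and the treated level was above that of WT vehicle cells (33.9 and 34.9 CPM). Eif2ak3 rose to 262 and 245 CPM from 181 and 158 CPM (0.58 ± 0.10, adjusted p = 6.24e-04). No eIF2 alpha kinase was called lower.

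Of the factors that had been high in ADPKD vehicle cells, Eif1 fell to 706 and 721 CPM from 1129 and 1058 CPM (-0.62 ± 0.09, adjusted p = 1.73e-04). Eif1ad fell to 42.3 and 45.8 CPM from 65.3 and 75.0 CPM (-0.67 ± 0.12, adjusted p = 7.52e-04). Eif6 was at 194 and 199 CPM after 315 and 361 CPM with vehicle (-0.78 ± 0.13, adjusted p = 3.94e-04). The fall of Eif6 was -0.38 with the GC trend described below removed, and that of Eif1 was -0.41 with a trend in transcript length removed. All 3 are in the group named for start codon choice and subunit joining. Their treated and vehicle libraries did not overlap, as for 43 of the 52 genes and 12495 of all 17440 genes tested. Eif4ebp1 was at 85.7 and 96.8 CPM with 666-15 against 133 and 159.5 CPM (-0.68 ± 0.12, adjusted p = 5.42e-04), and its share of the pair with Eif4ebp2 went to 74.2% and 75.6%. Eif3g was at 65.6 and 83.8 CPM against 128 and 128 CPM (-0.78 ± 0.12, adjusted p = 2.75e-04; -0.49 with that trend removed). Over eIF3, 4 of 14 were lower (Eif3g, Eif3h, Eif3k, Eif3l) and 1 higher (Eif3m), with a median of -0.20. Leaving out the first ADPKD 666-15 library left Eif3g alone as lower and none as higher.

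The alpha subunit Eif2s1, at 111 and 127 CPM with 666-15, was lower by a small margin (-0.28 ± 0.10, adjusted p = 0.0445). That call ended with DESeq2, without the low-count filter and without any 1 of the 4 ADPKD libraries (for example -0.17, adjusted p = 0.365, without the first 666-15 library), and also without either WT vehicle library, while with the GC trend removed the value was -0.64. Eif4a1 was at 707 and 762 CPM and did not pass (-0.05 ± 0.10, adjusted p = 0.744). Eif4a2 rose to 389 and 367 CPM (0.54 ± 0.11, adjusted p = 0.00162), and its share of the helicase pair per length went to 39.2% and 36.0%, between those of ADPKD vehicle and WT libraries. Eif4e was at 280.3 and 321 CPM (0.37 ± 0.09, adjusted p = 0.00701), and this did not pass without the second ADPKD 666-15 library (0.28, adjusted p = 0.0885). Eif2a, an alternative tRNA carrier, was at 61.0 and 71.8 CPM against 44.4 and 43.4 CPM (0.60 ± 0.12, adjusted p = 0.00151). Eif5a2 was at 19.4 and 16.8 CPM against 9.54 and 11.4 CPM (0.78 ± 0.23, adjusted p = 0.0159), and that call ended without the first ADPKD vehicle library (0.66, adjusted p = 0.0877) or the first 666-15 library (0.69, adjusted p = 0.111).

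The rises and falls with 666-15 in ADPKD cells followed the base composition of the transcripts. Across the 52 genes, Spearman's rho between the GC content of the longest transcript and the log2 fold change was -0.54, and across 17252 genes it was -0.35. Genes within a comparison share the same libraries and are not independent, so this is a description. The median was 0.26 over the 13 members lowest in GC content and -0.39 over the 13 highest. In WT cells rho with 666-15 was -0.03 over the members and 0.02 over all genes. When the GC trend was removed from each library, 22 members were called in ADPKD cells, 7 as higher and 15 as lower, and 12 of the 24 original calls were among them. The rises of Eif1a (0.19, adjusted p = 0.172), Eif2a (0.21, adjusted p = 0.155), Eif4a2 (0.15, adjusted p = 0.354), Eif4e (0.00, adjusted p = 0.983), Eif4g2 (0.09, adjusted p = 0.402) and Eif5a2 (0.38, adjusted p = 0.259) no longer passed, nor did that of Eif3m, which turned to -0.0882. The falls of Eif2b2 (-0.13, adjusted p = 0.399), Eif2b4 (-0.0975, adjusted p = 0.626), Eif3h (-0.19, adjusted p = 0.154) and Eif5a (-0.21, adjusted p = 0.0981) also no longer passed, and that of Eif4h turned to 0.0264. Whether the trend is technical was not tested.

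**Figure D4:**
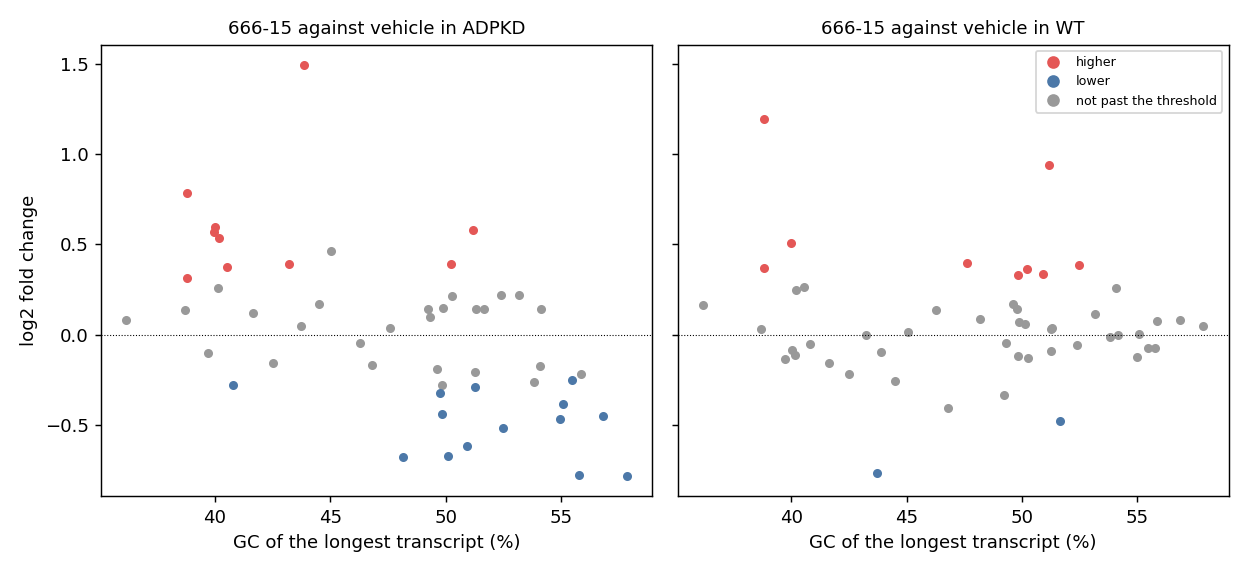
Log2 fold change with 666-15 (y axis) against GC content of the longest transcript in % (x axis) for 51 initiation factor genes in ADPKD cells (left) and WT cells (right); Eif4ebp3, with under 2 CPM in every library, is left out. Most genes called higher in ADPKD cells lie below 45% GC and the genes called lower mostly lie above 48%, a slope that the WT panel does not show.

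In WT cells, fewer initiation factors were called with 666-15 than in ADPKD cells, as were fewer of all genes. Relative to vehicle, 9 were higher, 2 were lower and 41 were not called, where 25.5% of all genes were called, 13.9% as higher and 11.6% as lower. The split depended on the setting: it was 7 higher and 4 lower with RLE scaling or with the length trend removed, 6 and 4 with DESeq2, 8 and 4 with the GC trend removed and 5 and 6 with a minimum of 5 CPM. Leaving out the first or the second WT vehicle library left 4 or 5 calls. Without the second 666-15 library, the one that differs in sex, 14 were called, 9 as higher and 5 as lower. Only Eif2ak3, Eif4g3, Eif5a2 and Eif5b were called under each of the 17 other settings at the same threshold.

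Eif2ak3 rose from 159 and 167 CPM to 328 and 296 CPM (0.94 ± 0.10, adjusted p = 2.54e-05). It was thus the only eIF2 alpha kinase called in WT cells, and it passed without the library that differs in sex (adjusted p = 1.78e-05). Eif5a2 went from 5.98 and 7.03 CPM to 18.4 and 11.4 CPM (1.197 ± 0.24, adjusted p = 0.00254; 1.495 without that library), and from 0.427% and 0.513% to 1.27% and 1.03% of eIF5A RNA per length. Eif5b fell from 145 and 143 CPM to 79.9 and 88.9 CPM (-0.77 ± 0.10, adjusted p = 7.59e-05; -0.85 without that library). Eif4g3, a scaffold paralogue of Eif4g1, fell from 161 and 169 CPM to 109 and 128 CPM (-0.48 ± 0.11, adjusted p = 0.00511; -0.60 without that library). Eif1a, for eIF1A, was at 252 and 300.5 CPM against 188 and 201 CPM (0.51 ± 0.12, adjusted p = 0.00804), a call lost without the first WT vehicle library (0.45, adjusted p = 0.0860) and at 0.37 (adjusted p = 0.0492) without the library that differs in sex. Among eIF3 subunits, Eif3f, Eif3i, Eif3k and Eif3m passed with log2 fold changes of 0.33 to 0.40 and none was lower, but none of the 4 passed without either WT vehicle library. With RLE scaling 3 were higher and 1 lower, and without the library that differs in sex 3 were higher and 2 lower. Eif4e (0.27 ± 0.09, adjusted p = 0.0569), Eif4a1 (0.13 ± 0.10, adjusted p = 0.376), Eif4ebp1 (0.09 ± 0.12, adjusted p = 0.638) and Eif2s1 (-0.05 ± 0.10, adjusted p = 0.761) were not called.

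The difference between the genotypes in the response to 666-15 was tested as an interaction, which is the log2 fold change in ADPKD cells minus that in WT cells. It was called for 15 of the 52 genes, 7 above 0 and 8 below, where 26.6% of all genes were called, 13.6% above and 13% below. Without the first WT vehicle library 9 were called, and without the 666-15 library that differs in sex 20 were called, 9 above 0 and 11 below. Eif2ak2 had the largest value at 1.59 ± 0.19 (adjusted p = 9.98e-05; 1.74 without the library that differs in sex), since WT cells held 29.6 and 34.9 CPM with 666-15 and 33.9 and 34.9 CPM with vehicle. Eif1 had the lowest value at -0.95 ± 0.13 (adjusted p = 1.91e-04), with 705 and 657 CPM in WT 666-15 libraries, above the vehicle level. Eif5b (0.82 ± 0.13, adjusted p = 8.07e-04) was called lower in WT cells and not called in ADPKD cells, where it stood at 219 and 225 CPM in ADPKD 666-15 libraries against 208 and 222 CPM with vehicle. Eif3k, at 105 and 91.9 CPM in WT 666-15 libraries against 72.0 and 78.8 CPM with vehicle, and at 78.4 and 90.8 CPM against 123 and 119.9 CPM in ADPKD cells, had an interaction of -0.90 ± 0.16 (adjusted p = 0.00125). Eif4ebp1 (-0.77 ± 0.16, adjusted p = 0.00444) and Eif1ad (-0.73 ± 0.17, adjusted p = 0.00747) completed the 6 genes whose interaction was called under each of the 16 other settings at the same threshold. Without the library that differs in sex, the interactions were -0.98 for Eif1, 0.92 for Eif5b, -0.97 for Eif3k, -0.69 for Eif4ebp1 and -0.76 for Eif1ad. Eif2ak3 rose in both genotypes, and the difference between its rises was not called (-0.36 ± 0.14, adjusted p = 0.0813), except without the library that differs in sex (-0.41, adjusted p = 0.0455). The interaction was also not called for Eif2s1 (-0.23 ± 0.15, adjusted p = 0.283), Eif4a1 (-0.18 ± 0.14, adjusted p = 0.391) or Eif4e (0.11 ± 0.13, adjusted p = 0.600).

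**Figure D5:**
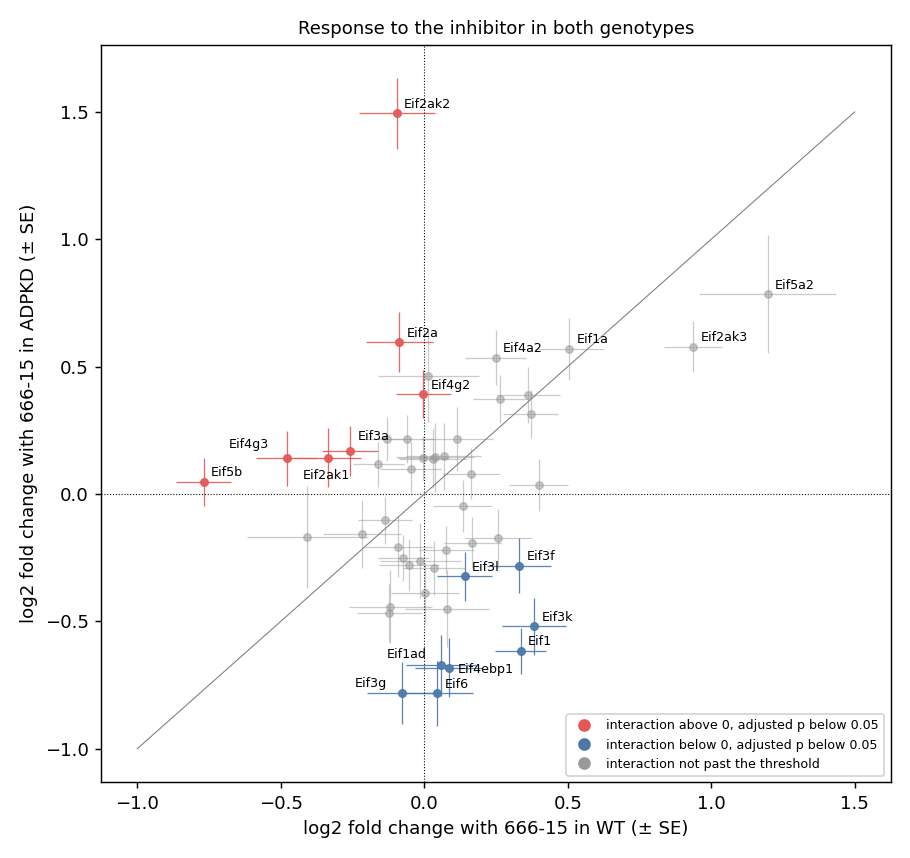
Log2 fold change with 666-15 in ADPKD cells (y axis) against WT cells (x axis) for 50 initiation factor genes, with bars of ± 1 SE; Eif4ebp3 and Eif3j2 are left out for low counts. Eif2ak2 lies far above the line of equal change and Eif1, Eif6, Eif3k and Eif4ebp1 lie below it, while Eif2ak3 and Eif5a2 are positive on both axes.

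With 666-15 in both genotypes, 23 initiation factors were higher in ADPKD than in WT cells, 5 were lower and 24 were not called, where 46.3% of all genes were called, 21.8% as higher and 24.5% as lower. The median log2 fold change was 0.22, and -0.03 over all genes. Without the library that differs in sex, 29 were called, 23 as higher and 6 as lower, and 27 of the 28 were among them. Of the eIF3 subunits, 8 of 14 were higher and none lower, with a median of 0.38. Eif5b had the largest difference, 1.40 ± 0.10 (adjusted p = 2.19e-07; 1.49 without the library that differs in sex), from 79.9 and 88.9 CPM in WT to 219 and 225 CPM in ADPKD libraries. Eif3a was at 339.7 and 393 CPM against 665 and 726 CPM (0.92 ± 0.10, adjusted p = 9.04e-06), and Eif4e2 at 65.3 and 65.7 CPM against 117 and 129.9 CPM (0.92 ± 0.11, adjusted p = 1.76e-05). Eif2s1 was at 63.1 and 66.5 CPM against 111 and 127 CPM (0.88 ± 0.11, adjusted p = 2.18e-05). Both subunits of eIF2 among the members were thus higher in ADPKD cells under either treatment, Eif2s2 by 0.78 here. Eif3e (0.85) was also higher under both treatments, as was Eif2b3 (0.90), whose call with vehicle rested on 1 library as given above. Spearman's rho with GC content was -0.45 over the members in this comparison and -0.21 over all genes, and with the trend removed Eif2s2 was at 0.45 and Eif3e at 0.41, both still called. Eif2b4 was lower, at 35.5 and 31.8 CPM in WT and 18.8 and 17.0 CPM in ADPKD 666-15 libraries (-0.91 ± 0.15, adjusted p = 3.25e-04), so that subunits of the same eIF2B complex again lay on both sides. Eif4a1 (0.41 ± 0.10, adjusted p = 0.00539) was higher and Eif4a2 (-0.45 ± 0.11, adjusted p = 0.00386) lower, the Eif4a1 call being lost without the second ADPKD 666-15 library (0.35, adjusted p = 0.0572). Eif1 (0.07, adjusted p = 0.564), Eif4ebp1 (0.01 ± 0.12, adjusted p = 0.939) and Eif4e (0.12 ± 0.09, adjusted p = 0.339) were not called. Eif2ak3 was lower (-0.30 ± 0.10, adjusted p = 0.0260), but not without the first WT 666-15 library (-0.23, adjusted p = 0.117) or either ADPKD 666-15 library (-0.34 and -0.26, adjusted p = 0.0677 and 0.159), nor with the GC trend removed (-0.16, adjusted p = 0.200). Without the library that differs in sex, the differences were 1.04 for Eif3a, 0.93 for Eif4e2, 0.93 for Eif2s1, 0.97 for Eif2s2, 0.93 for Eif3e, 0.79 for Eif2b3, -0.98 for Eif2b4, 0.32 for Eif4a1, -0.52 for Eif4a2 and -0.36 for Eif2ak3, all called.

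Neighbouring steps of translation were followed through lists of related genes. Of 18 other initiation cofactors, 6 were higher and 4 lower in ADPKD vehicle cells, near the 28.8% and 27.6% of all genes, and the calls of Paip1, Paip2 and Mknk1 among them ended without the first WT vehicle library. Denr and Mcts1 encode the partners of a complex that recycles the small subunit and supports reinitiation, and they moved apart: Denr had mean levels of 55.4 CPM in WT vehicle and 361 CPM in ADPKD vehicle libraries (2.70 ± 0.11, adjusted p = 7.49e-10), and Mcts1 21.3 and 7.53 CPM (-1.50 ± 0.18, adjusted p = 1.09e-05). With 666-15, Denr was lower in ADPKD cells (-0.57) and Mcts1 higher (1.04). Denr overlaps another gene model on the same strand, as Eef2k below overlaps others, so their reads may be divided. Pdcd4, which inhibits the eIF4A helicase, was lower in ADPKD vehicle cells (39.0 against 21.5 CPM, -0.86 ± 0.12) and higher with 666-15 in ADPKD cells (1.18 ± 0.12). Pabpc1, the poly(A)-binding protein that contacts eIF4G, rose with 666-15 in both genotypes, by 0.69 in ADPKD and 0.63 in WT cells.

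Of 7 genes tested on the elongation factor list, 6 were higher in ADPKD vehicle cells and 1 lower, against 28.8% and 27.6% of all genes. The list includes Eef1e1, whose role in elongation was not tested, and a kinase, Eef2k. With 666-15 in ADPKD cells 5 of the 7 were lower and 1 higher, against 19.1% and 22.3% of all genes. Of the 5, only Eef1a1 stayed called without the first ADPKD 666-15 library, where Eef1b2, Eef1e1, Eef1g and Eef2 did not pass, and Eef2 ranged from -0.33 to 0.12 over the settings. Eef1a1, which delivers tRNA to the ribosome, differed by 1.12 ± 0.10 between genotypes with vehicle. The exception in both comparisons was Eef2k, the kinase that brakes elongation, which was lower by genotype (-1.53 ± 0.22) and higher with 666-15 in ADPKD cells (1.67 ± 0.22). Of 9 factors of mitochondrial translation, 8 were lower in ADPKD vehicle cells and none higher, against 27.6% and 28.8% of all genes. Their median was -0.92, and Mtif2, the mitochondrial counterpart of eIF5B and eIF2, was among the 8 (-1.50 ± 0.18). The call of Mtif3 ended without the first WT vehicle or the first ADPKD vehicle library. That of Gfm2 ended without the first WT vehicle or the second ADPKD vehicle library. Termination and ribosome rescue factors were higher in 3 of 5 and lower in none, against 28.8% and 27.6% of all genes. Of the 3, the Gspt2 call ended without the first WT vehicle or the first ADPKD vehicle library, and with the 2 groups alone.

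The list of Atf4 and its targets, which are translated or transcribed when eIF2 alpha is phosphorylated, was higher in 8 of 10 and lower in none between genotypes with vehicle, with a median log2 fold change of 0.95. Over all genes, 28.8% were higher and 27.6% lower. Of the 8, the Slc7a11 call ended without either WT vehicle library. With 666-15, 7 of the 10 in the Atf4 list were lower in ADPKD cells and none higher (median -0.66), against 19.1% and 22.3% of all genes. Of the 7, the Psat1 call was kept in 10 of 17 other settings, and ended without any single ADPKD library or either WT vehicle library. The Sesn2 call ended with the GC trend removed, and its change ranged from -0.61 to -0.08 over the settings. In WT cells 4 were higher and 2 lower, against 13.9% and 11.6% of all genes. The WT calls of Atf4 (higher) and Slc7a11 (lower) ended without the first WT vehicle library. The interaction was called below 0 for 6 of the 10 and above 0 for 1, Phgdh, against 13% and 13.6% of all genes. The Phgdh call ended without the second WT vehicle, the second ADPKD vehicle or the first ADPKD 666-15 library. Ddit3, the stress-induced factor CHOP, had mean levels of 82.7 CPM in WT vehicle, 131 CPM in WT 666-15, 125 CPM in ADPKD vehicle and 45.3 CPM in ADPKD 666-15 libraries, an interaction of -2.13 ± 0.18 (adjusted p = 8.77e-06). Atf4 itself was at 549, 734, 749.5 and 496 CPM in the same order, with an interaction of -1.01 ± 0.14 (adjusted p = 2.50e-04). Ppp1r15a, whose product directs dephosphorylation of eIF2 alpha, was at 315, 533, 805 and 431 CPM, with an interaction of -1.66 ± 0.16. Eif2ak3 and Eif2ak2 RNA rose with 666-15 in ADPKD cells while these genes fell. RNA levels do not measure phosphorylation of eIF2 alpha.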

How the data were processed

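RNA-seq of 8 libraries was analysed. Per the labels, poly(A) RNA was selected with oligo dT from DBA-positive cells; whole kidney is also named in the extraction protocol. The deposited table holds raw counts per gene. Per the submitters' processing notes, the tools named were HISAT2 2.1.0, featureCounts 1.6.0 and DESeq2, with build mm10. The annotation, strandedness and treatment of multiply mapped reads are not given in the sources used here. Vehicle columns carry no treatment in their names and were matched to the samples by elimination.

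The test was edgeR 4.0.16 in R 4.3.3: filterByExpr (minimum count 10, minimum total 15), TMM scaling, and 1 quasi-likelihood model of the 4 groups with robust estimation (4 residual degrees of freedom, median prior 8.69, common biological coefficient of variation 0.138). The 5 comparisons were two-sided, with Benjamini-Hochberg adjustment over all 17440 genes. CPM are TMM-scaled. Members and gene lists were chosen with earlier results of these data known. Every member could be named. Full statistics were given for up to 8 called members per comparison by size of change with no overlap of libraries and at least 5 CPM, and for Eif2s1, Eif4e, Eif4a1, Eif4ebp1 and Eif2ak3 throughout, and for others that a paragraph turns on. Gene positions, lengths and GC content came from GENCODE M21 (GRCm38), and promoters from RefSeq (GRCm38.p6). Replicate numbers did not pair libraries: deviations of same-numbered libraries correlated at -0.0416 to 0.0906 over 11199 genes. Replicates differed by more than counting noise, with chi-square per degree of freedom of 6.82 to 18.9. Alternatives were RLE scaling, no filter, at least 5 CPM in 2 libraries, no robust option, the replicate block, a 1.5-fold minimum, DESeq2 1.42.0, fits to the compared pair of groups, removal of a GC or length trend per library by lowess (span 0.3), and leaving out each library. Figures were drawn with matplotlib 3.10.9.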

Additional observations from a re-analysis of the deposited data

Results flagged for a closer look

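The effect of 666-15 differed between the genotypes, by the interaction test of edgeR at an adjusted p below 0.05, for 15 of the 52 initiation factors, near the 26.6% called over all genes. Values are the log2 fold change in ADPKD cells minus that in WT cells. Those above 0 were Eif2ak2 (1.59), Eif5b (0.82), Eif2a (0.68), Eif4g3 (0.62), Eif2ak1 (0.48), Eif3a (0.43) and Eif4g2 (0.39). Those below 0 were Eif1 (-0.95), Eif3k (-0.90), Eif6 (-0.83), Eif4ebp1 (-0.77), Eif1ad (-0.73), Eif3g (-0.70), Eif3f (-0.61) and Eif3l (-0.46). The call was lost with the GC trend removed for Eif6 (-0.35, adjusted p = 0.105), Eif3g (-0.34, adjusted p = 0.150), Eif2a (0.33, adjusted p = 0.154), Eif3a (0.25, adjusted p = 0.165) and Eif4g2 (0.15, adjusted p = 0.380). Leaving out 1 library ended the call for Eif2a (without the second ADPKD 666-15 library, 0.58), Eif4g3 (without the same library, 0.53), Eif3f (-0.47 without the first ADPKD vehicle library, -0.57 without the first WT vehicle library and -0.49 without the first ADPKD 666-15 library), Eif3g (-0.63 without the first WT vehicle library and -0.52 without the first ADPKD 666-15 library) and, for several choices of library each, Eif2ak1, Eif3a, Eif3l and Eif4g2. Each group held 2 libraries, too few for a search for single outlying libraries.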

How the results depend on the processing

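Of the members called, 24 of 34 (genotypes with vehicle), 7 of 24 (666-15 in ADPKD), 4 of 11 (666-15 in WT), 19 of 28 (genotypes with 666-15) and 6 of 15 (interaction) kept their call and direction under every setting run other than the 1.5-fold minimum. With that minimum, 22, 8, 3 and 11 were called in the first 4 comparisons, since the threshold asks for a larger change. Leaving out 1 library gave 25 to 37, 13 to 28, 4 to 14, 20 to 29 and 9 to 20 calls in the 5 comparisons. The lowest value came without the first ADPKD 666-15 library in ADPKD cells, and without the first WT vehicle library in WT cells and in the interaction (5 without the second WT vehicle library in WT cells). Without the 666-15 library that differs in sex, 14 were called in WT cells and 20 in the interaction. The replicate number as a block gave 34, 24, 11, 29 and 14 calls, and since the numbers do not pair libraries it is only given here; it ended the interaction call of Eif2ak1 (0.48, adjusted p = 0.0550) and called Eif1a between genotypes with 666-15 (0.30, adjusted p = 0.0199). With the GC trend removed, 6 members that were called with or without that trend changed sign with 666-15 in ADPKD cells: Eif2s2 (-0.26), Eif3e (-0.36), Eif3m (-0.0882), Eif4h (0.0264), Eif5 (-0.22) and Eif5b (-0.23). Sign changes of members called in neither fit were not counted. The cause was not tested. With 2 libraries per group, 4 residual degrees of freedom limit the test, and Eif4ebp3 and Eif3j2 were too low to compare.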
